A study of Homo sapiens with 40 samples.

Results

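The RNA recovered with an antibody against the DEAD-box helicase eIF4A2 (eIF4A2 IP) was compared with total RNA from the same kind of HEK293 lysate. These 6 libraries, 3 eIF4A2 IP and 3 total RNA, were chosen by their labels from the 40 RNA-Seq libraries of the study. HEK293 is an established human embryonic kidney line, the protein was precipitated at its endogenous level without crosslinking, and these cells carried no transgene and received no siRNA. Total RNA came from an aliquot of lysate kept before the beads were added. IPs of the paralogue eIF4A1 and of the helicase DDX6 (n = 3 each), made from untreated HEK293 cells in the same experiment, served to show where the eIF4A2 IP differed from them. The other readouts used here came from control siRNA cells separated on sucrose gradients (n = 4 gradients) and from control and TNRC6A/B siRNA cells (n = 2 each). All libraries were made from poly(A)-selected RNA. No IgG library was used here, so RNA that sticks to beads was not measured, and a gene higher in the IP is one whose share of the reads is larger there than in total RNA.

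The eIF4A proteins are RNA helicases. eIF4A1 is the helicase of the cap-binding complex eIF4F, in which it unwinds the 5′UTR for the scanning ribosome. eIF4A2 is a closely similar protein, earlier reported to act in eIF4F as well. The study found that eIF4A2 bound the eIF4F scaffold eIF4G only weakly. It has also been found with the Ccr4-Not complex, which shortens poly(A) tails and represses translation. DDX6 is another helicase that binds Ccr4-Not and acts in repression and decapping. Because the study examined purine-rich motifs of 5′UTRs, and because ribosomal protein mRNAs carry a 5′ terminal oligopyrimidine tract (TOP), the ends of 5′UTRs are shown first.

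The 30 bases just before the start codon are given for the protein-coding genes among the most enriched and the most depleted, to show what these windows look like at both ends of the distribution. Coordinates are GRCh37, sequences read 5′ to 3′ on the mRNA strand, and capitals mark a match to 1 of 8 purine tetramers (AAGA with AGAA, or GAAA with GAGA, or AGAG with GGAA, or AAAA with GAAG), searched on the mRNA strand with overlaps allowed.
ZBTB42, enriched, chr14:105267505-105267534 (+): cgtttgtgcccaggtgatgacggcggcggc
PRF1, enriched, chr10:72360659-72360688 (-): agcccaagtgccccctgtctctgcagctcc
B3GALT6, enriched, chr1:1167629-1167658 (+): ggcctgggccgccggcccggcgcgggcgcc
FAM189A1, enriched, chr15:29862928-29862957 (-): agcgggcgaggcgtgcgggcgcccggcgcg
YBX1, depleted, chr1:43148207-43148236 (+): cagccggccccagtcaccatcaccgcaacc
EEF1A2, depleted, chr20:62129117-62129146 (-): gtcccgccagcccctcacactcccagcaaa
RPS15, depleted, chr19:1438395-1438424 (+): caaagcgatctcttctgaggatccggcaag
CCDC94, depleted, chr19:4247114-4247143 (+): aggtgcttgcgaggtgatcAGAAGgcaaag
Of the 8 windows, the one of CCDC94 held a purine tetramer. The 4 windows of enriched mRNAs had GC contents of 70, 66.7, 96.7 and 90% in the order shown, and the 4 of depleted mRNAs 70, 66.7, 53.3 and 53.3%.

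The first 20 bases from the RefSeq transcription start are shown for TOP mRNAs, on GRCh38.p14, with the starting run of pyrimidines in capitals. RPL29, RPS19 and EEF2 were depleted, whereas RPL41 and RPSA were not called.
RPL29, chr3:51995876-51995895 (-): CTCTTCCggttctaggcgct
RPS19, chr19:41860255-41860274 (+): CCCTTTCCCCTggctggcag
EEF2, chr19:3985444-3985463 (-): CTCTTCCgccgtcgtcgccg
RPL41, chr12:56116633-56116652 (+): CTCTCggccttagcgccatt
RPSA, chr3:39406720-39406739 (+): CTTTTCCgtgctacctgcag
RefSeq places the start of RPL19, RPS15, RPS29 and VIM at a position without such a run, so the annotated start does not show the tract of every mRNA of this class.

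The 6 libraries held 26.9 to 43.5 M counts (M, mega) each, over 55765 gene symbols. The neurofilament mRNAs NEFM (3310 to 4210 CPM of the library total in total RNA; CPM, counts scaled to 1 M) and NEFL (714 to 917), which HEK293 cells are known to express, were abundant. The markers PTPRC and CD3E of leukocytes, HBB and HBA1 of erythroid cells, ALB and APOA1 of hepatocytes and MPO of neutrophils stayed at or below 0.335 CPM in the 6 libraries, and the fibroblast gene COL1A1 was at 10.1 to 16.7. The labels do not say whether the 3 libraries of a group came from separate cultures, so the p-values measure only the spread between these libraries. The reads carry no molecular identifiers, so depth covers counting error only.

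Of 17474 genes tested, 4283 (24.5%) were higher and 4509 (25.8%) were lower in the eIF4A2 IP than in total RNA (edgeR quasi-likelihood test, Benjamini-Hochberg FDR below 0.05). The median log2 fold change was 0.97 among the genes called higher and -1.0 among those called lower, against 0.01 over all genes. A change of at least 2-fold was seen for 2011 (11.5%) and 2264 (13.0%) genes. For 10221 genes (58.5%) the 3 IP values and the 3 total RNA values did not overlap. With the libraries scaled to their totals alone, the median of all genes moved to 0.32, and 69.6% of the calls were higher instead of 48.7%, so the direction of genes near the median depends on the scaling.

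**Figure D1:**
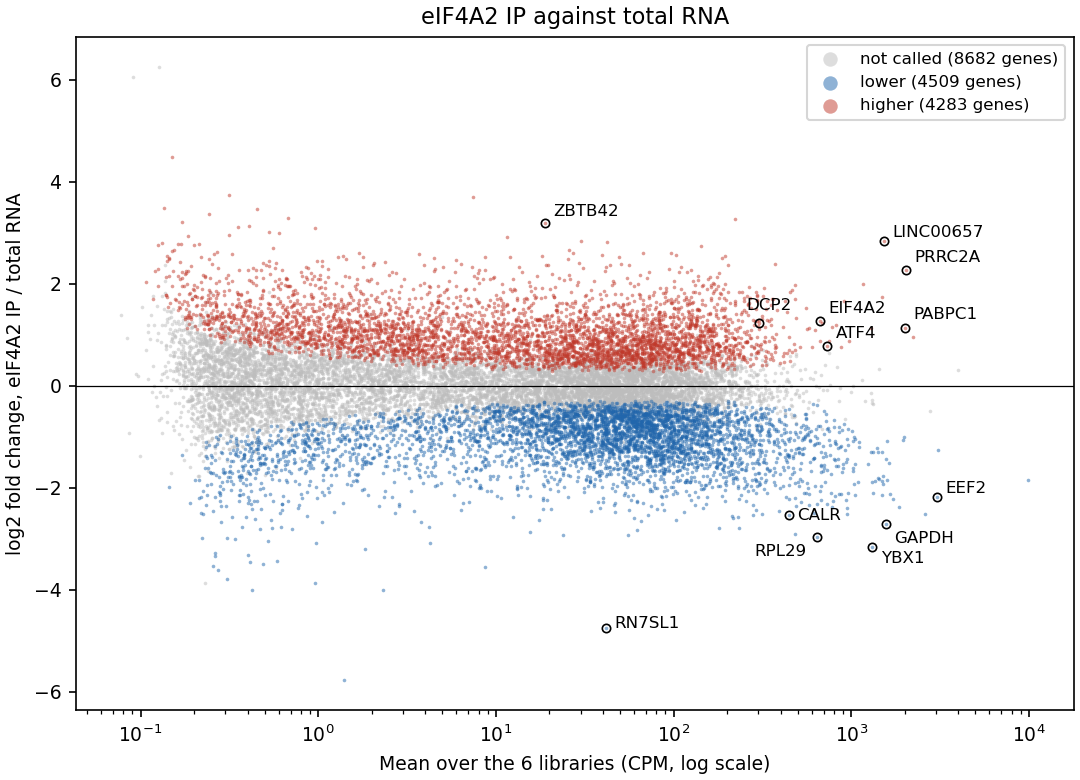
Each point is a gene, with its mean level on the x axis and its log2 fold change, eIF4A2 IP over total RNA, on the y axis; colours mark genes called higher, called lower and not called (3 libraries per group). The 4283 genes called higher and the 4509 called lower lie on both sides of 0, with LINC00657 and ZBTB42 near the upper edge and RN7SL1 and YBX1 near the lower edge.

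The classes of transcripts differed. Of 13703 protein-coding genes tested, 23.0% were higher and 29.4% lower, with a median of -0.07. Long noncoding RNAs went the other way, with 41.9% of 625 higher and 9.28% lower, and a median of 0.52. Pseudogenes (358 tested) had 29.1% higher and 15.9% lower. These classes also differ in level, with median total RNA values of 32.6, 1.68 and 0.729 CPM (of the TMM-adjusted total, used from here on), and the part of level in the difference was not tested.

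The most enriched transcripts were a mixture of noncoding RNAs and mRNAs of low or middle abundance. LINC00657 (chr20:34633540-34638940, GRCh37 as for all genes below), the noncoding RNA NORAD that binds PUM proteins, had 358, 367 and 400 CPM in total RNA and 2370, 2700 and 2980 in the IP. The log2 fold change was 2.84 ± 0.16 (SE, edgeR FDR 4.25e-07). LINC00205 had 9.42, 9.18 and 12.6 CPM against 84.4, 64.7 and 72.0, and SOX21-AS1 had 8.34, 7.72 and 6.89 against 50.1, 48.8 and 40.2. B3GALT6 (chr1:1167617-1170421), a galactosyltransferase of proteoglycan synthesis encoded by a single exon, had 39.0, 40.2 and 32.5 CPM in total RNA and 230, 241 and 277 in the IP, a log2 fold change of 2.74 ± 0.17 (edgeR FDR 4.25e-07). PRF1, which encodes perforin, had 2.42, 3.16 and 2.48 CPM against 22.0, 20.4 and 18.7 although leukocyte markers were near 0. FAM189A1, MVB12B (an ESCRT-I subunit) and FJX1 followed with log2 fold changes of 2.66, 2.61 and 2.61, and PVRL4 (nectin-4) with 2.57. Their IP values lay between 41.2 and 184 CPM for the first 3. The genes of this paragraph were chosen with groups that do not overlap, so the lack of overlap is not a further result. Against total RNA their log2 fold changes were also positive in the other IPs. In the eIF4A1 and DDX6 IPs the log2 fold change was 1.81 and 1.44 for LINC00657. It was 2.21 and 1.55 for B3GALT6 and 2.49 and 1.81 for PRF1, so such enrichment is not particular to the eIF4A2 IP.

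The most depleted transcripts included mRNAs of glycolysis, translation and secreted proteins. GAPDH (chr12:6643678-6647540), a glycolytic enzyme, had 3020, 3200 and 1940 CPM in total RNA and 467, 366 and 417 in the IP, with a log2 fold change of -2.71 ± 0.19 (edgeR FDR 5.74e-07). Against total RNA it was at -2.41 in the eIF4A1 IP and at -2.0 in the DDX6 IP. The other genes of this paragraph also had negative log2 fold changes in those IPs. TKT, transketolase of the pentose phosphate pathway, had 457, 469 and 296 CPM against 66.5, 63.9 and 46. EEF1A2, an elongation factor, fell by 2.93 on the log2 scale, and RPL29 and RPS15, ribosomal proteins, fell by 2.97 and 2.91. In TKT, EEF1A2, RPL29 and RPS15 the third library was the lowest in both groups. Here too the genes of the paragraph were chosen with groups that do not overlap. Depletion of the same size was found for mRNAs of secreted and lysosomal proteins: CLU (clusterin) was at -2.93, CTSD (cathepsin D) at -2.83, CPVL (a carboxypeptidase) at -2.66 and COL4A2 (a basement membrane collagen) at -2.78. RN7SL1, the RNA of the signal recognition particle, had 164, 30.2 and 45.7 CPM against 4.06, 1.97 and 2.97, and it has many near-identical copies in the genome, so its counts are uncertain.

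The mRNAs of the proteins under study were measured in the same libraries. EIF4A2 mRNA (chr3:186500994-186507686) had 377, 375 and 421 CPM in total RNA and 851, 852 and 1130 in the IP of its own protein, a log2 fold change of 1.27 ± 0.15 (edgeR FDR 1.36e-05). DDX6 mRNA had 166, 177 and 173 CPM against 219, 218 and 207, with an FDR of 0.0993 by edgeR. CNOT1 mRNA, for the Ccr4-Not scaffold, had 563, 618 and 586 against 440, 414 and 583 (edgeR FDR 0.187, and 0.0472 with the replicate number as a block). EIF4A1 was at 4.18 to 10.9 CPM in all 6 libraries and was not called. The counts of EIF4A1 are uncertain, because a read-through gene, SENP3-EIF4A1, overlaps it.

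Transcripts of the translation machinery were depleted as a class. Of 47 large subunit ribosomal protein mRNAs tested, 44 were lower and none higher, and of 32 small subunit mRNAs 25 were lower and none higher, against the 25.8% of all genes called lower. The median log2 fold changes were -1.54 and -1.23. Together the large subunit mRNAs took 5.43, 5.25 and 4.23% of the counts in total RNA and 2.15, 2.37 and 1.98% in the IP, and the small subunit mRNAs 3.34 ± 0.412% and 1.87 ± 0.193% (SD, n = 3). RPL19 had 1780, 1820 and 1240 CPM in total RNA and 290, 393 and 168 in the IP, a log2 fold change of -2.51 ± 0.34 (edgeR FDR 5.2e-05). RPS19 had 1450, 1630 and 1060 against 321, 388 and 244. The members were not alike: RPL41 had 1720, 1690 and 998 CPM against 962, 1340 and 1190, RPSA had 1350, 1520 and 1110 against 888, 1290 and 1040, and RPS29 had 312, 308 and 171 against 256, 325 and 308. In these 3 the groups overlapped. Ribosomal protein genes have processed pseudogenes that share reads with them, so single members are uncertain.

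Other TOP mRNAs and most factors of initiation and elongation went the same way. Of 16 non-ribosomal TOP mRNAs tested, 14 were lower, and EEF2, the translocation factor, had 5780, 5610 and 3600 CPM in total RNA and 1400, 1280 and 641 in the IP (log2 fold change -2.18). PABPC1, the cytoplasmic poly(A)-binding protein, was the member called higher, with 1330, 1250 and 1150 CPM against 2730, 3160 and 2360 (log2 fold change 1.14 ± 0.17, edgeR FDR 8.65e-05). Its log2 fold change against total RNA was larger in the eIF4A1 and DDX6 IPs, at 1.55 and 2.46. EIF3A, an eIF3 subunit, was not called, at 742, 794 and 732 CPM against 1160, 774 and 369. Of 24 other initiation factors, 20 were lower, with a median of -1.23. EIF3I, an eIF3 subunit, had 515, 568 and 354 CPM against 88.0, 77.3 and 83.3, and EIF5B, which joins the ribosomal subunits, 315, 323 and 227 against 106, 64.9 and 51.9. EIF1B, a paralogue of the start codon selection factor EIF1, was the member called higher, by 0.57 on the log2 scale. All 20 cytosolic aminoacyl-tRNA synthetases were lower, from -2.0 for KARS to -0.63 for CARS. The median of this list was -1.34 here, -1.38 in the eIF4A1 IP and -1.06 in the DDX6 IP, each against total RNA. That of the other initiation factors was -1.23, -1.21 and -0.9 in the same order. With library totals as the scale, the calls of CARS and LARS were lost (edgeR FDR 0.149 and 0.06).

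The genes of eIF4F, its cofactors and its inhibitors were split. Of 16 tested, 5 were higher and 6 lower (31.2 and 37.5%, against 24.5 and 25.8% of all genes). The median of -0.22 turned to 0.10 with library totals as the scale. Those higher were EIF4A2, PABPC1, PABPC4, EIF4G1 (the scaffold of eIF4F) and EIF4EBP2, the last 2 named after their values were seen. PABPC4 had 412, 454 and 364 CPM against 924, 975 and 992. EIF4EBP1, the inhibitor that sequesters the cap-binding protein, had 86.0, 94.4 and 61.6 CPM against 21.7, 33.9 and 14.1, and EIF4H, a cofactor that stimulates the helicase, 700, 823 and 590 against 273, 302 and 331. With 1 library left out, the number called higher was 3 in each of 3 cases, without total RNA replicate 1 or 3 or eIF4A2 IP replicate 2.

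The PRRC2 proteins are long, disordered proteins that bind initiation factors, and all 3 of their mRNAs were enriched. PRRC2A (chr6:31588492-31605548) had 692, 801 and 611 CPM in total RNA and 5350, 3470 and 1300 in the IP, a log2 fold change of 2.27 ± 0.41 (edgeR FDR 0.000519). PRRC2B had 480, 510 and 422 CPM against 2580, 1820 and 1210, and PRRC2C 653, 683 and 705 against 2870, 2720 and 1280. In all 3 genes IP replicate 1 was the highest and IP replicate 3 the lowest, and the groups did not overlap. Together they took 0.163 ± 0.00324% of the counts in total RNA and 0.825 ± 0.386% in the IP (SD, n = 3).

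**Figure D2:**
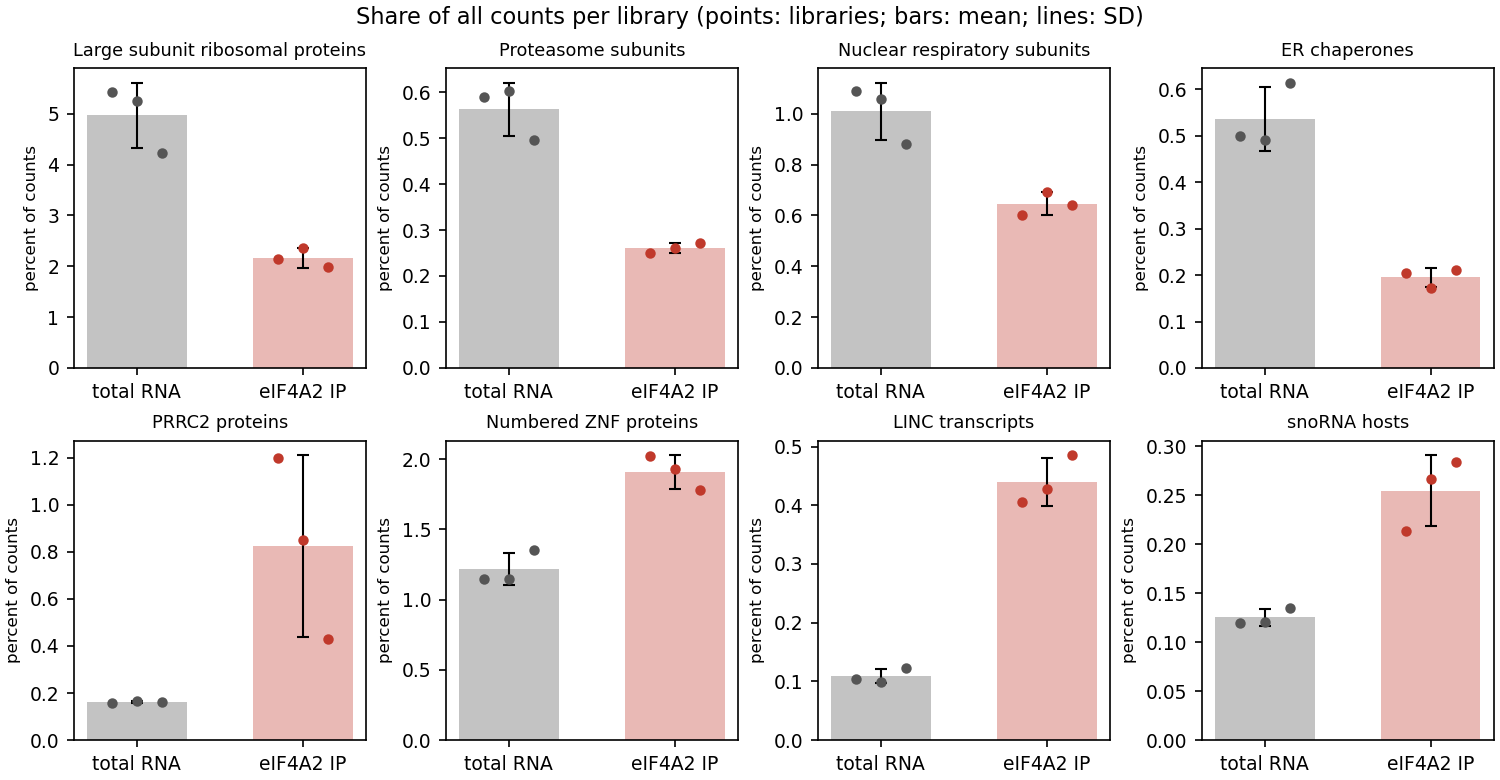
Percent of all counts of a library taken by gene lists (y axis) in each of the 3 total RNA and 3 eIF4A2 IP libraries (points), with the mean as a bar and the SD as a line. Large subunit ribosomal protein mRNAs went from 4.97% to 2.17% and long intergenic noncoding RNAs from 0.109% to 0.44%, of which LINC00657 alone was 0.0332% and 0.295%.

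Genes of the repression machinery moved by smaller amounts and in both directions. Of the 11 Ccr4-Not subunits, 3 were higher and 5 lower (27.3 and 45.5%, against 24.5 and 25.8% of all genes). Their median of -0.30 turned to 0.02 with library totals as the scale. The deadenylase CNOT8 had 64.4, 63.9 and 62.9 CPM against 104, 132 and 109 (log2 fold change 0.85 ± 0.12, edgeR FDR 8.08e-05). CNOT3, CNOT4 and CNOT10 fell by 1.32, 0.98 and 0.84, and CNOT2 and CNOT6L by 0.55 and 0.58. The calls of CNOT2 and CNOT6L were lost with library totals as the scale (edgeR FDR 0.146 and 0.203), which left 3 members lower. CNOT6 and RQCD1 were higher by 0.42 and 0.45, but without eIF4A2 IP replicate 2 neither was called (edgeR FDR 0.0977 and 0.0503). CNOT6 was also not called without total RNA replicate 1, and RQCD1 without replicate 3 of either group. BTG1 and BTG2, which recruit the deadenylases, were higher by 0.62 and 0.53, and TOB2 was at 0.40 and not called without total RNA replicate 1 or 3 or eIF4A2 IP replicate 2 or 3 (edgeR FDR 0.0646 to 0.104).

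Among 13 genes of miRNA processing and silencing, 2 were higher and 2 lower (15.4% each, against 24.5 and 25.8% of all genes). The replicate block gave 4 and 4. AGO4, an Argonaute protein, had 40.1, 39.9 and 53.8 CPM against 102, 93.4 and 115, and XPO5, the exporter of miRNA precursors, had 280, 306 and 256 against 154, 147 and 181. The other calls, DGCR8 at 0.35 and TNRC6B at -0.54, were lost when total RNA replicate 1 was left out (edgeR FDR 0.103 and 0.0635). The call of DGCR8 was lost whichever of the 6 libraries was left out, and that of TNRC6B with each left out except eIF4A2 IP replicate 1. The median of the list, 0.06, was -0.02 without eIF4A2 IP replicate 2. Of 15 decapping and P-body genes, 5 were higher and 3 lower, and 9 and 0 with library totals as the scale. DCP2, the decapping enzyme, had 165, 178 and 198 CPM against 403, 436 and 436 (log2 fold change 1.23 ± 0.14, edgeR FDR 1.5e-05). PAN2 and PAN3, subunits of a deadenylase, were each higher by 0.94, the former not called without total RNA replicate 2 (edgeR FDR 0.0666), and LSM14B and PNRC2 by 0.57 and 0.68. DCP1B and EDC4, cofactors of decapping, and the exonuclease XRN1 were lower, at -0.77, -0.64 and -0.58, and DCP1B was not called without eIF4A2 IP replicate 1 (edgeR FDR 0.0535). PAN3, LSM14B, PNRC2 and XRN1 were named after their values were seen.

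RNA-binding proteins that bring Ccr4-Not to mRNAs were more often higher, with 8 of 15 higher, 2 lower and a median of 0.48. These shares were 53.3 and 13.3%, against 24.5 and 25.8% of all genes. NANOS1 had 7.66, 7.96 and 7.47 CPM against 25.2, 31.0 and 20.5, and its partner PUM2 had 188, 208 and 206 against 290, 398 and 485. The 2 members called lower, CPEB4 and ZFP36L1, were not called without total RNA replicate 2 (edgeR FDR 0.0786 and 0.0738) or eIF4A2 IP replicate 1 or 2, nor with library totals as the scale, and CPEB4 also not without total RNA replicate 3. Of 10 nonsense-mediated decay genes, SMG5 was higher by 0.96 and UPF3B, SMG8 and SMG9 were lower, and without eIF4A2 IP replicate 3 a 2nd member was higher. The helicase UPF1 had 262, 281 and 190 CPM against 243, 215 and 225, with overlapping groups.

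**Figure D3:**
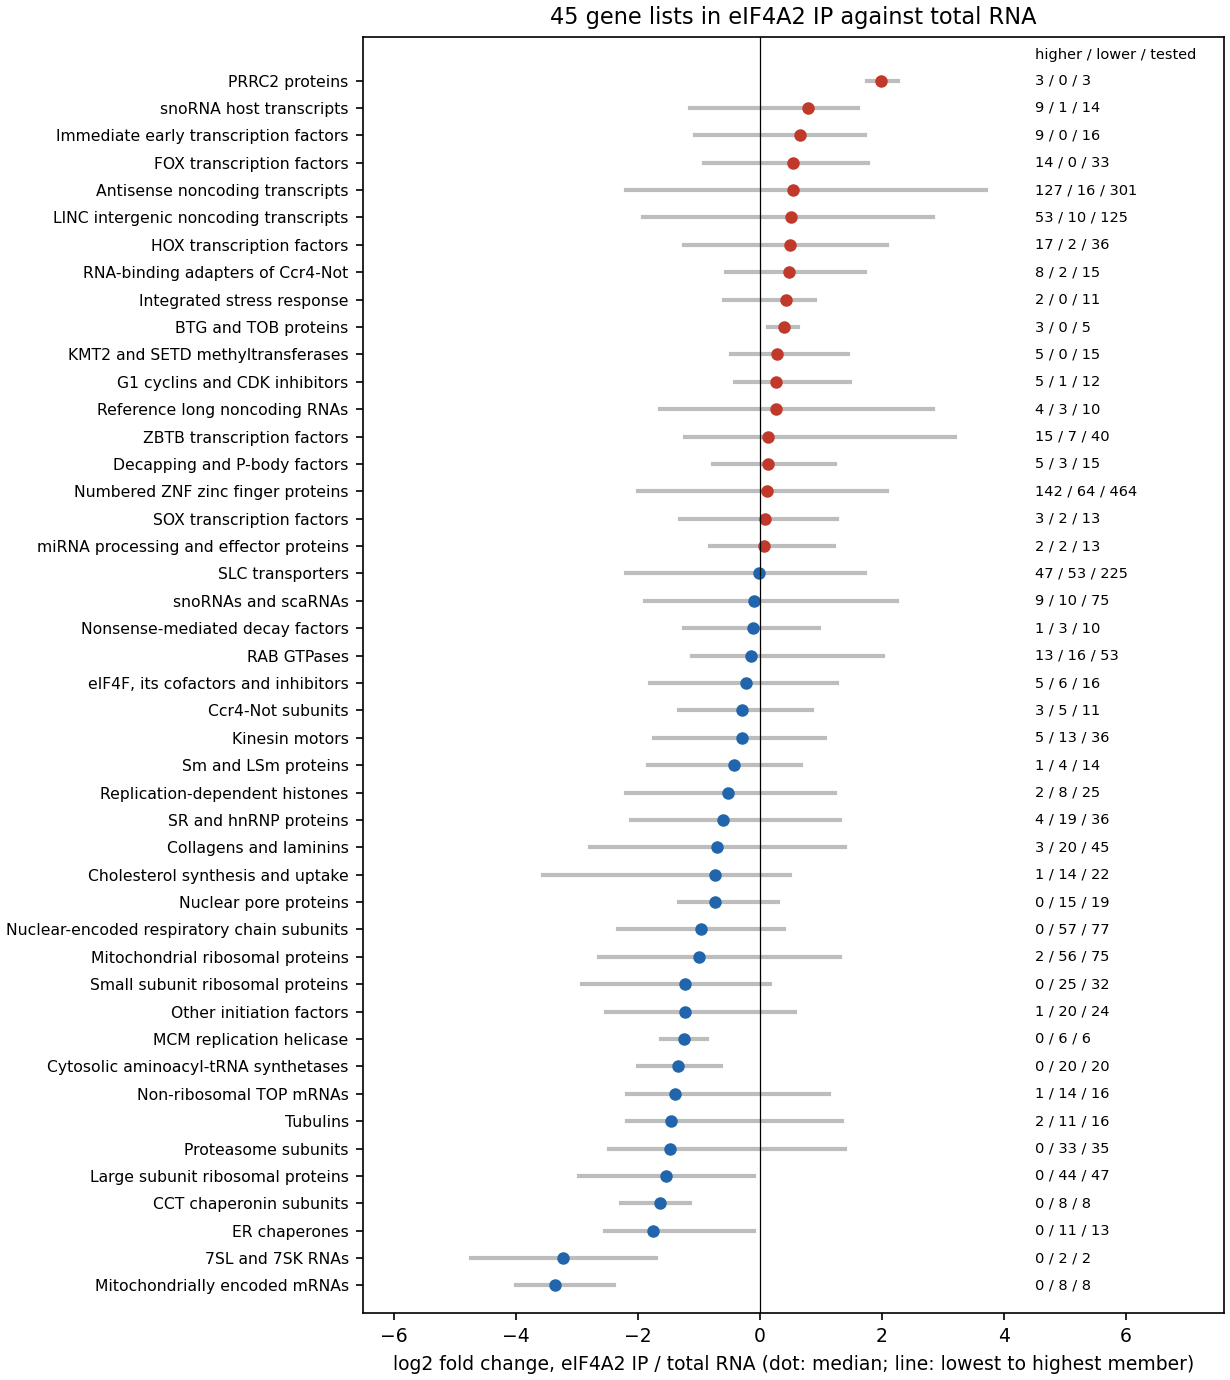
Log2 fold change, eIF4A2 IP over total RNA (x axis), of the 45 gene lists (rows); the dot is the median of the tested members, red above 0 and blue below, the line runs from the lowest to the highest member, and the numbers count members higher, lower and tested. Chaperonin, ER chaperone and large subunit ribosomal protein lists lie left of 0, and the PRRC2 list right of 0 with a median of 1.99.

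Subunits of the chaperonin, the proteasome and the MCM helicase were depleted in nearly every case. Depletion of these lists was also seen in the other IPs. Their medians against total RNA were -1.72, -1.38 and -1.3 in the eIF4A1 IP and -1.47, -0.96 and -1.19 in the DDX6 IP. All 8 subunits of the CCT chaperonin, which folds actin and tubulin, were lower, from -1.14 for TCP1 to -2.28 for CCT7, which had 920, 965 and 706 CPM in total RNA and 180, 160 and 194 in the IP. Of 35 proteasome subunits tested, 33 were lower with a median of -1.48, and PSMD1 had 254, 281 and 206 CPM against 54.5, 46.9 and 40.4. The 2 not called were PSMB8 and PSMB10, subunits of the immunoproteasome, which were named after their values were seen. All 6 MCM replication helicase genes were lower, between -0.86 for MCM3 and -1.62 for MCM2 and MCM6, and so were 15 of 19 nuclear pore genes, with 1 called higher with the replicate block. Of 16 tubulin genes, 11 were lower and 2 higher (4 higher with the replicate block or with library totals as the scale). TUBA1A was at -2.18, while TUBA1C had 441, 506 and 292 CPM against 337, 478 and 510 and was not called. The 2 called higher, TUBB8 and TUBBP5, both at 1.34 and named after their values were seen, had mean levels of 0.999 and 1.7 CPM in total RNA, and near-identical copies make their counts uncertain.

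Nuclear genes for mitochondrial proteins followed. Of 75 mitochondrial ribosomal protein genes, 56 were lower and 2 higher, and of 77 respiratory chain subunits 57 were lower and none higher, with medians of -1.0 and -0.97. Against total RNA these medians were -0.7 and -0.6 in the eIF4A1 IP and -0.31 and -0.2 in the DDX6 IP. NDUFB11, of complex I, had 166, 157 and 108 CPM against 28.7, 28.2 and 28.9. ATP5E, of the ATP synthase, had 228, 217 and 146 against 236, 347 and 196, with overlapping groups. MRPL33 and MRPL53 were the 2 mitochondrial ribosomal protein mRNAs called higher, by 1.05 and 1.32, and with the replicate block 4 were. Of the 13 mRNAs encoded in the mitochondrial genome, 8 passed the filter on low counts and all 8 were lower. The 13 together took 0.00123 ± 0.000431% of the counts in total RNA and 0.000148 ± 7.84e-05% in the IP (SD, n = 3). These values are near the floor, so the size of the fall is uncertain. The median of the 8 was -3.36 in the fit, but -1.23, -1.9 and -1.07 by replicate number with a pseudocount of 0.5 CPM.

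Proteins made at the endoplasmic reticulum (ER) were represented by several lists. Of 13 ER chaperones, 11 were lower, with a median of -1.75. Their median against total RNA was -1.3 in the eIF4A1 IP and -1.46 in the DDX6 IP. HSPA5, the ER HSP70, had 629, 669 and 692 CPM in total RNA and 134, 96.4 and 131 in the IP (log2 fold change -2.46 ± 0.16, edgeR FDR 4.35e-07), and CALR, calreticulin, had 784, 788 and 714 against 148, 137 and 107. MANF and SDF2L1 were the 2 not called, with values of 66.9, 73.7 and 73.1 CPM against 53.7, 80.3 and 64.8 for MANF. Of 45 collagen and laminin genes tested, 20 were lower and 3 higher (5 with the replicate block), and COL4A1 fell by 2.17. Of 22 genes of cholesterol synthesis and uptake, 14 were lower, among them NSDHL and SC5D, at -1.89 and -1.70. INSIG1, the ER anchor that restrains this pathway, was at 0.49 and was not called without total RNA replicate 1 or 2 or eIF4A2 IP replicate 2 or 3 (edgeR FDR 0.0947 to 0.115). Of 225 solute carriers, 47 were higher and 53 lower (20.9 and 23.6%, close to the 24.5 and 25.8% of all genes). With library totals as the scale 77 were higher and 32 lower. SLC25A23 was at 1.66 and SLC16A7 at -2.19.

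Transcription factor mRNAs lay near or above the median of all genes. Of 464 numbered zinc finger genes tested, 142 were higher and 64 lower, shares of 30.6% and 13.8% (172 and 96 genes with the replicate block, 220 and 21 with library totals), and their summed counts went from 1.22 ± 0.116% to 1.91 ± 0.118% of the libraries (SD, n = 3). ZNF865 had 11.0, 10.4 and 6.07 CPM against 43, 39.6 and 34.2. The list was not uniform: ZNF622, which acts in 60S ribosome maturation, had 41.1, 45.7 and 29.2 CPM against 11.0, 9.91 and 8.23. Of 40 ZBTB genes, 15 were higher and 7 lower (37.5 and 17.5%, against 24.5 and 25.8% of all genes). ZBTB42 was at 3.20 and ZBTB22 at 2.10, and among those lower ZBTB37 was at -0.93 and ZBTB21 at -0.74. With library totals as the scale 1 was lower and neither ZBTB37 nor ZBTB21 was called. HOX genes had 17 of 36 higher and 2 lower, a count of 11 higher without eIF4A2 IP replicate 2 and of 4 lower with the replicate block. FOX genes had 14 of 33 higher and none lower, and 21 higher and 3 lower with the replicate block. FOXK1 had 171, 183 and 150 CPM against 664, 449 and 519, and FOXK2 124, 140 and 123 against 429, 482 and 275. SETD5, a SET domain protein, was the most enriched of 15 KMT2 and SETD genes, at 1.45 ± 0.16.

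Among immediate early genes and regulators of the cell cycle and of stress, more members were called higher than lower. Of 16 immediate early transcription factors, 9 were higher and none lower (1 with the replicate block), with a median of 0.66, among them JUND (41.1, 39.6 and 20.9 CPM against 127, 149 and 59.0) and FOSL2. MYC and JUN were not called, with MYC at 1050, 1030 and 759 CPM against 858, 860 and 600. Of 12 G1 cyclins and inhibitors, 5 were higher (41.7%, against 24.5% of all genes), led by CDKN2D at 1.47 and CCNE2 at 0.68. CCND1 was lower, at -0.41 (8.33% of the list, against 25.8% of all genes), with a 2nd member lower with the replicate block. The call of CCND1 was lost with library totals as the scale (edgeR FDR 0.576) and without total RNA replicate 1 or 2 or eIF4A2 IP replicate 1 or 3 (0.0628 to 0.159). ATF4, the transcription factor of the integrated stress response, whose mRNA has upstream open reading frames, had 563, 541 and 525 CPM against 906, 1180 and 701, and PPP1R15A, which ends that response, 31.6, 27.4 and 28.5 against 58.9, 61.4 and 32.5. These were the 2 of 11 genes of the list called higher, or 18.2% against the 24.5% of all genes, with 5 higher and 2 lower with the replicate block and 4 and 2 without eIF4A2 IP replicate 3.

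Splicing factors were more often lower than higher. Of 36 SR and hnRNP genes tested, 19 were lower and 4 higher (1 higher without total RNA replicate 1), and HNRNPU had 1250, 1330 and 1160 CPM against 374, 332 and 163. Of 14 Sm and LSm genes, 4 were lower (28.6%, close to the 25.8% of all genes) and 1 higher, and 8 and 4 with the replicate block. SNRPD2, a core Sm protein, fell by 1.84. LSM5, the member called higher, was not called without eIF4A2 IP replicate 2 (edgeR FDR 0.156) or total RNA replicate 1 or 3. RAB GTPase genes had 13 of 53 higher and 16 lower, shares of 24.5 and 30.2% close to the 24.5 and 25.8% of all genes. Kinesin genes had 5 of 36 higher (13.9%) and 13 lower (36.1%), with 8 higher with the replicate block or without eIF4A2 IP replicate 3. The medians of the RAB and kinesin lists, -0.14 and -0.30, turned to 0.16 and 0.02 with library totals as the scale. Within these families RAB40C and RAB40B, adapters of a ubiquitin ligase, were higher by 2.02 and 1.59, and KIF5B, a motor of conventional kinesin, was lower by 1.73. Of 89 replication-dependent histone genes, whose mRNAs lack a poly(A) tail, 25 passed the filter on low counts. Among these, 8 were lower and 2 higher (32.0 and 8.0%), and none higher without total RNA replicate 2 or eIF4A2 IP replicate 1 or 3.

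Long noncoding transcripts were more often higher than lower. The medians against total RNA were 0.51 for LINC and 0.54 for antisense transcripts. They were 0.45 and 0.63 in the eIF4A1 IP, and 0.38 and 0.49 in the DDX6 IP. Of 125 LINC transcripts tested, 53 were higher and 10 lower, and together they took 0.104, 0.0999 and 0.123% of the counts in total RNA and 0.406, 0.427 and 0.486% in the IP. LINC00657, described above, carried most of this rise, with 0.0332 ± 0.00403% in total RNA and 0.295 ± 0.038% in the IP (SD, n = 3). The rest of the list had 0.0723, 0.0694 and 0.085% against 0.143, 0.141 and 0.149%. Of 301 antisense transcripts tested, 127 were higher and 16 lower (9 without total RNA replicate 3), with TP73-AS1 at 73.7, 84.4 and 82.1 CPM against 271, 276 and 353. The strand option of the counting is not given in the sources used here, so antisense counts may hold reads of the gene on the other strand. Of 14 snoRNA host transcripts, which are spliced and have short open reading frames, 9 were higher, with SNHG7 at 92.2, 94.2 and 71.9 CPM against 233, 284 and 234, and SNHG3 was lower by 1.14. Among the 10 reference noncoding RNAs, nuclear ones were lower: MALAT1 had 70.0, 47.0 and 105 CPM against 33.2, 16.5 and 21.8 (log2 fold change -1.64 ± 0.30, edgeR FDR 0.000592). NEAT1 and KCNQ1OT1 were at -0.79 and -1.08, calls that were lost without total RNA replicate 1 (edgeR FDR 0.0599 and 0.0524) or 3 or eIF4A2 IP replicate 2 or 3, and with library totals as the scale (edgeR FDR 0.176 and 0.11). DANCR and EPB41L4A-AS1 were higher by 0.84 and 0.93. TUG1 was also called higher, but not without total RNA replicate 1 or 2 or eIF4A2 IP replicate 1. In these fits its log2 fold change was 0.55 to 0.61 (edgeR FDR 0.0582 to 0.082). The snoRNAs themselves, 75 of 410 passing the filter, had 9 higher and 10 lower, with 16 lower with the replicate block and 26 without eIF4A2 IP replicate 3, and 14 higher and 5 lower with library totals as the scale.

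Features of the mRNAs were then described across protein-coding genes, taking 1 transcript per gene and dividing the genes into 5 bins, of equal size except for the count of tetramers near the start codon. Genes are not independent replicates, so no test was made. Enrichment went with the length of the 5′UTR: in the bin with the shortest 5′UTRs (median 31 nt) 14.3% were higher and 42.2% lower, and in the bin with the longest (median 456 nt) 35.3% were higher and 13.1% lower. It also went with GC content. From the lowest to the highest bin of 5′UTR GC content, the share called higher went from 18.7 to 37.4% and the share called lower from 27.8 to 15.9%, and the bin below the highest stood at 23.7 and 28.4%. For CDS GC content the share called higher rose in each step from 14.1 to 33.9%, and the share called lower fell from 38.7 to 14.4%. Against the eIF4A1 IP the direction was the reverse. From the lowest to the highest bin the median log2 difference went from 0.04 to -0.12 for 5′UTR GC and from 0.04 to -0.17 for CDS GC. Against the DDX6 IP it went from 0.01 to -0.06 and from -0.08 to 0.03.

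Against total RNA, the density of the 8 purine tetramers in the CDS, counted without overlap, ran opposite to CDS GC content. By their density in the CDS the share called higher fell from 34.7 to 13.8% and the share called lower rose from 16.2 to 39.9%. In the 5′UTR there was no steady trend: from the lowest to the highest bin 23.0, 30.9, 25.1, 21.6 and 17.4% were higher, and 31.3 and 32.3% were lower in the lowest and the highest. In the last 50 nt before the start codon, 27.3% of 4662 genes without a tetramer were higher and 25.5% lower, and of 497 genes with at least 4, 22.7% were higher and 23.5% lower. Against the eIF4A1 IP, median log2 differences moved upward with the tetramers, from -0.14 to 0.0 over the CDS bins, from -0.12 to -0.01 over the 5′UTR bins and from -0.06 to 0.03 over the bins of the last 50 nt. Against the DDX6 IP they went from 0.01 to -0.14, from -0.16 to -0.05 and from -0.05 to 0.02. These comparisons share the eIF4A2 IP libraries. CDS GC content and CDS purine density are bound to each other: when genes were split at the medians, 5591 had low GC and high purine density and 1262 had low values of both. In the latter 20.1% were higher and 34.0% lower, and in the 5590 genes with high GC and low purine density 31.0 and 19.6%.

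CDS length made little difference to the comparison with total RNA (24.0% higher in the bin of shortest CDS, 20.4% in the longest). The level of the mRNA per kilobase of transcript, taken from control siRNA cells of the TNRC6 experiment, which the IP comparison did not use, went with depletion: 58.8% of the most abundant bin were lower and 10.4% higher, against 8.32 and 27.1% in the least abundant bin. The median log2 fold change moved in the same way, from 0.30 to -0.66. Above the median level, genes with short 5′UTRs had 11.6% higher and 53.3% lower and genes with long 5′UTRs 27.8 and 30.2%. Below the median level the same classes had 23.4 and 19.4% and 30.7 and 12.5%. Long 5′UTR and high CDS GC content together gave 37.5% higher and 13.2% lower among 3273 genes, and short 5′UTR with low CDS GC content 11.5 and 48.6% among 3297.

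**Figure D4:**
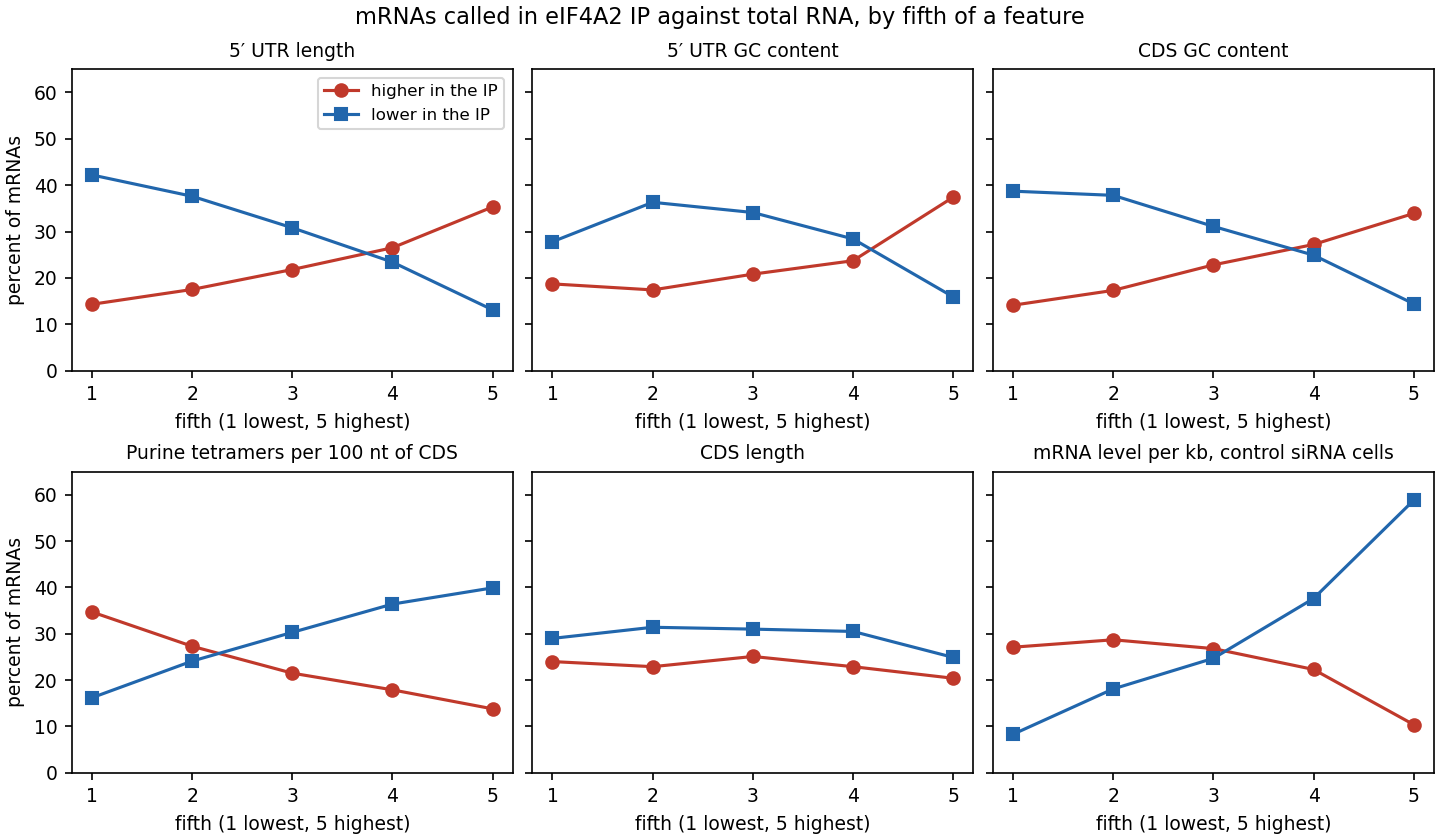
Percent of protein-coding genes called higher and lower in the eIF4A2 IP (y axis) by bin of each mRNA feature (x axis, bin 1 of 5 has the lowest values). The share called higher rises with 5′UTR length from 14.3 to 35.3% and falls with CDS purine density from 34.7 to 13.8%.

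A start with C followed by 4 pyrimidines, read on the sense strand at the RefSeq start, was found at 4.07% of all 35116 promoters in the RefSeq table. The table matched 11127 of 13703 protein-coding genes tested (81.2%). Of 581 tested genes with this start 41.0% were lower and 20.7% higher, and of 10546 with another start 29.8 and 22.6%. Outside the ribosomal protein and TOP lists, 530 genes with this start had 36.2% lower and 22.6% higher. Within those lists, 51 members with this start were lower in 90.2% and 22 members with another annotated start in 86.4%.

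Polysome association was taken from control siRNA cells, whose libraries the IP comparison did not use. For each gradient, the log2 ratio of polysomal (pooled fractions) to subpolysomal CPM was set against the median of all genes. Genes called higher in the eIF4A2 IP (3810 in both data sets) had median ratios of -0.30, -0.38, -0.54 and -0.44 in the 4 gradients, and genes called lower (4365) had 0.59, 0.61, 0.78 and 0.73. Genes not called stood between, at -0.16 ± 0.01 (SD, n = 4). The genes called higher were thus further towards the subpolysomal fractions in each of the 4 gradients, by a mean of -1.09 ± 0.19 against those called lower (exact sign-flip permutation test, two-sided, p = 0.125, the smallest that 4 gradients allow). In protein-coding genes alone the means were -0.26 and 0.75. Polysomal library 3 had 27.4 CPM of CNOT1 mRNA where the other 3 had 447, 460 and 469, which goes against its control label, and without that gradient the difference was -1.02.

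The separation was also present within bins of abundance and of CDS length. In the most abundant bin, genes called higher had a ratio of -0.08 and genes called lower 0.97, and in the least abundant bin -0.44 and 0.46. In the bin of shortest CDS the ratios were -0.29 and 0.82 and in the longest -0.07 and 0.78. Across 15341 genes Spearman's rho between the log2 fold change and the mean polysome ratio was -0.39, a description only, since genes share libraries.

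The lists showed where this did not hold. Depleted lists mostly had high ratios: ER chaperones 1.55 ± 0.15, proteasome subunits 1.26 ± 0.07, other initiation factors 0.83 ± 0.03. Ribosomal protein mRNAs were depleted as well but stood on the subpolysomal side, at -1.33 ± 0.51 and -1.59 ± 0.43 for the large and small subunits, or -1.08 and -1.38 without gradient 3. PRRC2 mRNAs were enriched yet polysomal, with 0.88, 1.02, 1.20 and 0.96 in the 4 gradients. Numbered zinc finger mRNAs were at -0.98, -0.98, -0.84 and -0.74. The snoRNA host transcripts were at -2.93, -3.07, -3.93 and -2.90.

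**Figure D5:**
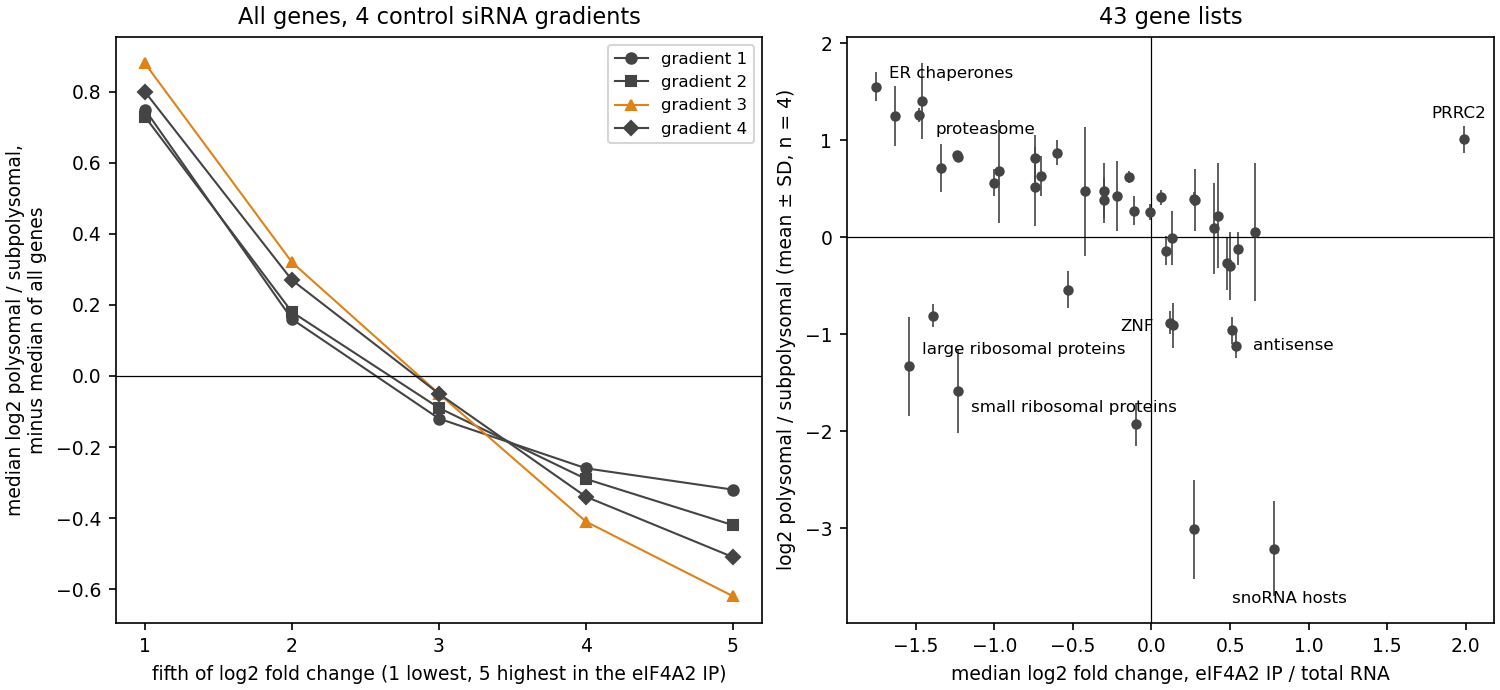
Left, median log2 polysomal/subpolysomal ratio minus that of all genes (y axis) by bin of the log2 fold change in the eIF4A2 IP (x axis, bin 1 of 5 lowest), with 1 line per control siRNA gradient and gradient 3 in orange; right, the same ratio of 43 gene lists (y axis, mean ± SD of 4 gradients) against their median log2 fold change (x axis), leaving out the 2 lists with medians below -3. The ratio falls from 0.73 to 0.88 in the lowest bin to -0.62 to -0.32 in the highest, and the ribosomal protein lists and the PRRC2 list lie away from this direction.

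TNRC6A and TNRC6B are GW182 proteins, which bring Ccr4-Not to Argonaute and its miRNA targets. In cells with TNRC6A/B siRNA, TNRC6A went from 172 and 197 CPM to 39.2 and 66.2 and TNRC6B from 65.4 and 76.1 to 17.1 and 26.9, but 0 of 14064 genes (0.0%) were called by edgeR with 2 libraries per group. At an unadjusted p under 0.05 there were 289 genes, and with the replicate block 520 were called higher and 243 lower. Genes higher in the eIF4A2 IP had a median log2 fold change of -0.04 and genes lower in it -0.02, and the order was reversed among genes of at least 10 CPM, at 0.023 and -0.004. With the block, 4.53% of 3463 genes higher in the IP were called higher after the siRNAs, 3.04% of 4243 genes lower in it and 3.72% of 6298 not called. In the same order, 1.79, 1.41 and 1.91% were called lower after the siRNAs.

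Compared directly, fewer genes were called between the eIF4A2 and eIF4A1 IPs than between the eIF4A2 and DDX6 IPs. Against the eIF4A1 IP, 170 genes (0.973%) were higher and 15 (0.0858%) lower, and with the replicate block 1245 and 1521, so that the small counts do not show that the IPs are alike. Against the DDX6 IP, 1716 (9.82%) were higher and 1969 (11.3%) lower, and 3232 and 3842 with the block. Leaving out eIF4A1 IP replicate 3 gave 42 and 4 genes, eIF4A1 IP replicate 2 gave 57 and 1, and eIF4A2 IP replicates 1 and 3 gave 104 and 3 and 66 and 1. Against the DDX6 IP, leaving out DDX6 IP replicate 2 gave 745 and 742, and eIF4A2 IP replicate 1 gave 924 and 723. These comparisons share the eIF4A2 IP libraries with the one above.

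Among the genes with the largest differences from the eIF4A1 IP were ZC3H13, of the RNA methylation machinery, higher by 2.10, and COX6B1, GRINA and NDUFA7, lower by 1.04, 0.94 and 0.93. From the DDX6 IP, PRRC2A and PRRC2C were higher by 2.28 and 2.22, and RPS19, EIF4EBP1 and CCHCR1 were lower, at -1.91, -1.81 and -2.26. RPL36A was among the highest in both, but a read-through gene overlaps it and makes its counts uncertain. Of the ribosomal protein mRNAs, 45 of 47 large and 30 of 32 small subunit members were lower than in the DDX6 IP (11.3% of all genes). The medians were -1.35 and -1.24. Against the eIF4A1 IP the medians were also below 0, at -0.67 and -0.61. There 0 members were called lower, but so were only 0.0858% of all genes, so this count does not show that the 2 IPs are alike for these mRNAs. Numbered zinc finger genes were higher than in the DDX6 IP for 103 of 464 and lower for 13, against 9.82 and 11.3% of all genes. CDS length, which did not separate the genes against total RNA, did so between the IPs: from the shortest to the longest bin the median log2 difference went from -0.29 to 0.13 against the eIF4A1 IP and from -0.45 to 0.13 against the DDX6 IP.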

How the data were processed

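Each deposited file gives the raw counts of 1 library, as whole numbers by gene symbol. Per the labels and the methods, the authors made them from strand-specific, poly(A)-selected HEK293 libraries sequenced on a NextSeq500, using bcl2fastq 2.0, TopHat2 with hg19 and HTSeq. The annotation release and the strand option are not given in the sources used here. A deposited table of the authors' own edgeR comparisons (fold changes, mean level, test statistic, p-values and FDR for each IP) was not used.

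Counts of the 12 RIP libraries were fitted together in edgeR 4.0.16 (R 4.3.3, limma 3.58.1) with filterByExpr, TMM factors (0.831 to 0.946 in total RNA, 1.06 to 1.13 in the eIF4A2 IP) and the two-sided quasi-likelihood F-test, and calls needed an FDR below 0.05 (Benjamini-Hochberg, all genes tested). SE is the log2 fold change divided by the square root of F. The TNRC6 libraries were fitted likewise. The procedure was tested on simulated data with few changed genes, equally up and down and without paired replicates. That setting differs from these data, so it does not test the scaling. Polysome ratios used a pseudocount of 0.5 CPM, and each gradient is 1 replicate. Groups came from sample titles. The description of the third total RNA library names another replicate number than its title, and the title was used.

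Replicate numbers come from the titles. Deviations from the group means correlated between same-numbered eIF4A2 IP and total RNA libraries with r = 0.138, 0.308 and 0.267 for numbers 1, 2 and 3. With the eIF4A1 IP r was 0.256, 0.52 and 0.234, and with the DDX6 IP 0.476, 0.46 and 0.503. The numbers were thus taken to pair the samples. The main calls still come from the fit without a block, since the study names none, so their FDR does not use the pairing. A fit with the number as a block is given where it changed the call of a gene described or a list's count by over 1.5 times. Alternatives were DESeq2 1.42.0, RLE factors, library totals alone, no filter, the 6 libraries alone, the block, and each library left out.

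The 45 gene lists, the comparisons and the libraries to compare were chosen with earlier results of these data known. Genes named are EIF4A2, EIF4A1, DDX6 and CNOT1, the 12 most increased and 12 most decreased called genes whose mean reached 10 CPM and whose groups did not overlap, the 2 highest and 2 lowest members of each list at that level (any member of a list of up to 12), and the 3 highest and 3 lowest of each direct comparison, except where stated. Not all of these are printed, and 1 marker gene and 1 gene of the direct comparisons are not reported here. Positions and mRNA features came from GENCODE on GRCh37, transcription starts from RefSeq on GRCh38.p14.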

Additional observations from a re-analysis of the deposited data

Results flagged for a closer look

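With 4 control siRNA gradients, 9 values had 1 gradient apart from the other 3 by more of the range than Dixon's critical value, which chance alone exceeds in about 1 in 20 groups of 4. CNOT1 mRNA in polysomal library 3 was at 27.4 CPM against 447, 460 and 469 in the others, while its subpolysomal partner was at 257 against 310, 291 and 235. In gradient 3 the median log2 polysome ratio was -2.09 for large subunit ribosomal protein mRNAs (others -0.99, -1.14 and -1.11), -2.23 for small subunit mRNAs (others -1.30, -1.45 and -1.38), 0.79 for BTG and TOB genes (others -0.09, -0.24 and -0.09) and -0.11 for respiratory chain subunits (others 0.98, 0.97 and 0.87). In the same gradient it was -0.52 for Sm and LSm genes (others 0.84, 0.83 and 0.73), -3.93 for snoRNA host transcripts (others -2.93, -3.07 and -2.90) and 0.45 for depleted genes in the bin of shortest CDS (others 0.99, 0.93 and 0.91). Proteasome subunits stood apart in gradient 1, at 1.16 against 1.29, 1.28 and 1.30.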

How the results depend on the processing

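In the comparison with total RNA, 3626 to 4091 genes were higher and 3987 to 4318 lower with 1 of the 6 libraries left out, and 6533 and 2852 with library totals alone. RLE factors, no filter, DESeq2, the block and the 6 libraries alone kept both counts within 1.5 times. The block called 5319 and 5582 genes, including all 4283 and 4509. Of 232 genes that could be named, 22 gained the call with the block and none lost it. Against the eIF4A1 IP, the counts higher and lower were 459 and 538 without the filter, 1245 and 1521 with the block, 541 and 159 by DESeq2, and 42 to 189 and 1 to 35 with 1 library left out. They were 24 and 0 in the 6 libraries alone by edgeR, where 1025 genes were lower at an unadjusted p under 0.05. Against the DDX6 IP, they were 2677 and 1144 with library totals, 3232 and 3842 with the block, and 745 to 1596 and 723 to 1887 with 1 library left out. With library totals the medians of the eIF4F, Ccr4-Not, RAB and kinesin lists were 0.10, 0.02, 0.16 and 0.02, and the miRNA list was at -0.02 to 0.12 with 1 library left out, lowest without eIF4A2 IP replicate 2. With a pseudocount of 5 CPM the polysome ratios were -0.19 and 0.51 for genes higher and lower, and -0.45 to -0.38 and 0.64 to 0.71 with 1 gradient left out. After TNRC6A/B siRNA 763 genes were called with the block, and the medians of genes higher and lower in the IP were -0.026 and -0.003, or 0.023 and -0.004 at 10 CPM or more. Among these 232 genes no called one changed sign, and with library totals 19 lost and 26 gained the call. The feature shares were recomputed with the longest CDS transcript, with mRNAs of at least 10 CPM and with the block. In the lowest and highest bins 89 values moved beyond the counting error of the main value and 67 did not. At 10 CPM or more, 12.5% were higher in the shortest and 37.5% in the longest 5′UTR bin. The least abundant bin had 36.2% higher and 15.4% lower, and the bin with at least 4 tetramers in the last 50 nt 26.0 and 28.6%. The cause of these changes was not tested. Antibody efficiency and bead binding were not measured, and 3 libraries per group limit small changes.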
